A study of Homo sapiens with 4 samples.

Results

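Cohesin is the ring-shaped protein complex that holds sister chromatids together and extrudes chromatin loops. The genes described here encode its ring, the factors that load it onto and release it from DNA, and the boundary protein that stops it. They are RAD21, SMC1A, SMC3, STAG1, STAG2, NIPBL, WAPAL (the older symbol of WAPL), PDS5A, PDS5B and CTCF. All transcript rows carrying one of these 10 symbols were taken, which gave 10 rows of 9 genes among 16328 rows. PDS5A had 2 rows, and STAG1 is not analysed here. The set was drawn up after WAPAL had stood out as low in SLEAR shRNA libraries in an earlier look at this same contrast, so the values of the set against Control are given as a description and support nothing by themselves.

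The cells were Jurkat, an established human line of leukemic T lymphocytes. They were transduced with a lentiviral vector that carried short hairpin RNAs against SLEAR (3 libraries, SLEAR shRNA-1, -2 and -3, also written shRNA-1, shRNA-2 and shRNA-3) or were labelled Control (1 library, named as a control hairpin in the series' design). SLEAR is the transcript that the series' title ties to systemic lupus erythematosus and to apoptosis. RNA was read by MAPS, which sequences fragments next to the poly(A) tail, and values are in RPM, reads scaled to a fixed library total. Which hairpin each number stands for, and whether the libraries came from separate cultures, is not given in the labels, so the spread between them may be technical.

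As background, SMC1A and SMC3 are long coiled-coil ATPases that meet at a hinge, RAD21 is the kleisin that closes the ring, and STAG1 or STAG2 binds RAD21. NIPBL, with its partner MAU2, loads cohesin and drives loop extrusion, while WAPL opens the ring at the junction of SMC3 and RAD21, with PDS5A or PDS5B bound beside it. CTCF is a zinc finger protein whose binding sites halt extruding cohesin. In developing T cells, cohesin and CTCF shape the loops within which antigen receptor genes rearrange.

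The step between low values put the libraries at about 7048619, 7524253 and 4814166 reads for SLEAR shRNA-1, -2 and -3 and 8384889 reads for Control. Every value of the 10 rows was a whole number of reads within 0.05 reads. Of 12 T lineage markers, 10 were at 1 RPM or more in every library, and their summed level was 4365 to 4496 RPM in SLEAR shRNA libraries and 4064 RPM in Control. Summed levels of B cell markers (3 of 6 with a row) were 19.7 to 23.1 RPM in SLEAR shRNA libraries and 12.1 RPM in Control, and those of epithelial or kidney markers (3 of 6 with a row) 17.1 to 38.2 RPM and 13.2 RPM. Summed levels of myeloid, erythroid and fibroblast markers were at most 1.59 RPM in SLEAR shRNA libraries and 2.62 RPM in Control. SLEAR shRNA-3 stood apart: 6941 of 16328 rows were at 0 there, against 2314 to 2984 rows in the other libraries, and its Pearson correlation with them across rows was 0.910 to 0.916, against 0.972 to 0.982 among those 3. The SLEAR transcript is not analysed here, and how far it was depleted was not checked. In bulk RNA, fewer cells with a transcript and less of it per cell cannot be told apart.

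**Figure D1:**
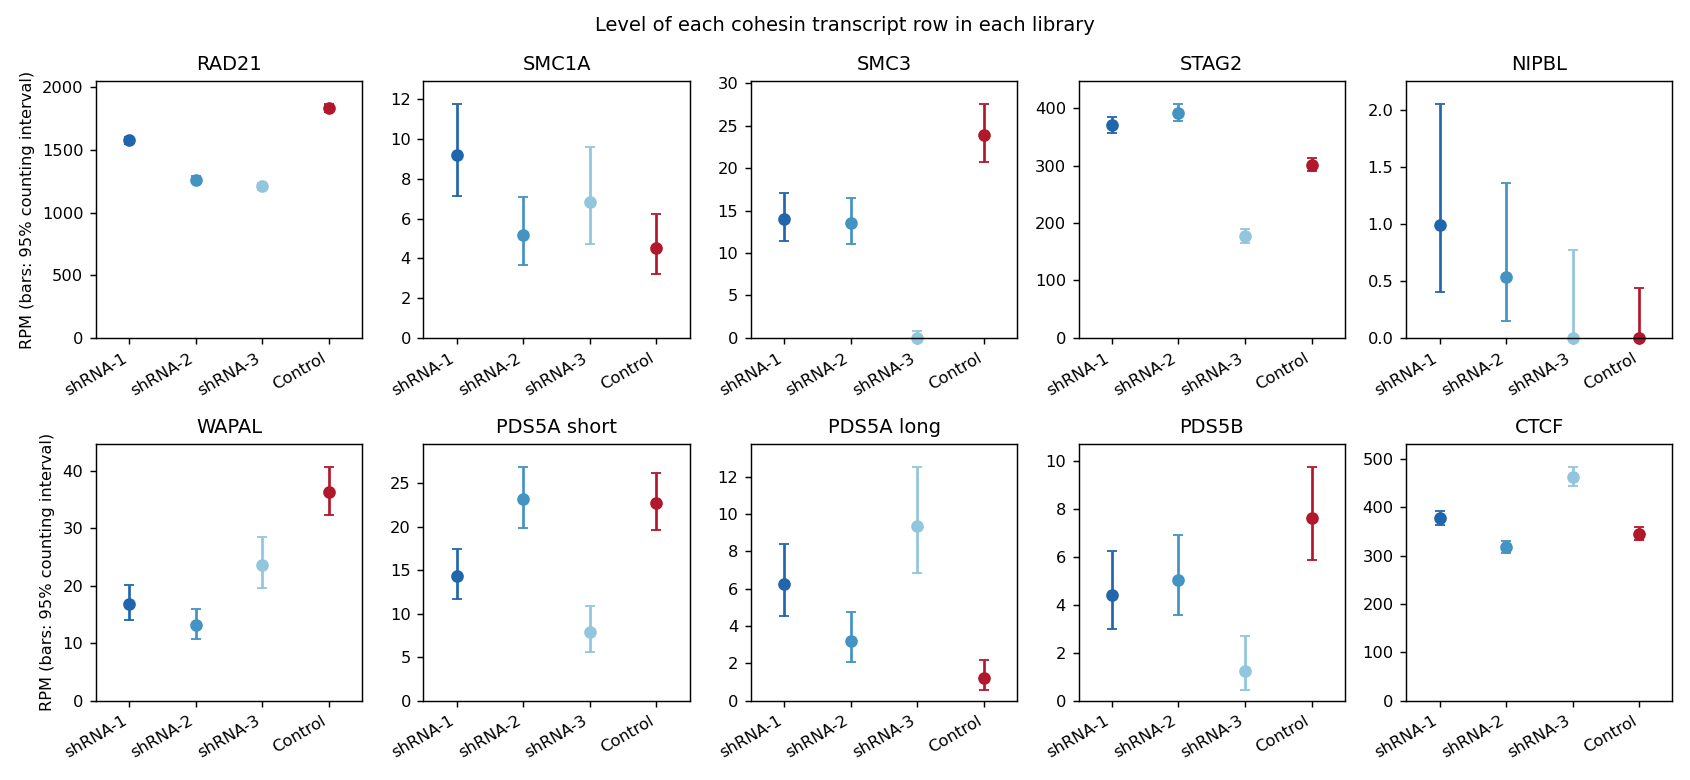
RPM of each of the 10 transcript rows in each library (points), with 95% exact Poisson intervals on the estimated reads (bars), which cover counting error only. WAPAL and RAD21 lay below Control in all 3 SLEAR shRNA libraries, whereas STAG2 and CTCF had SLEAR shRNA libraries on both sides of Control.

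WAPAL, which encodes the releasing factor, was at 16.9, 13.2 and 23.7 RPM with shRNA-1, shRNA-2 and shRNA-3, against 36.4 RPM in Control. These values rest on 119, 99 and 114 reads in the SLEAR shRNA libraries and 305 reads in Control. All 3 SLEAR shRNA libraries lay below Control, and their 95% counting intervals did not reach that of Control, which began at 32.4 RPM. The highest upper bound among them was 28.4 RPM, in SLEAR shRNA-3. Among the SLEAR shRNA libraries the intervals of shRNA-3 (from 19.5 RPM) and shRNA-1 (up to 20.2 RPM) overlapped, as did those of shRNA-1 (from 14 RPM) and shRNA-2 (up to 16 RPM), while those of shRNA-3 and shRNA-2 did not. The mean was 17.9 ± 5.34 RPM (SD, n = 3) in SLEAR shRNA libraries, which is 0.492 times the single Control value. On the log2(RPM + 1) scale, the scale of all differences here, the fitted difference was -1.02 ± 0.46 (SE), made of -1.06, -1.40 and -0.60 in the 3 libraries.

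The promoter of WAPL is shown because WAPAL is the member on which this account turns; the RNA data do not measure promoter activity. The window covers 250 bases before and 50 bases from the transcript start, at chr10:86521743-86522042 on the minus strand of GRCh38.p14 in the RefSeq promoter table, and capitals mark CCAAT boxes on either strand.

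WAPL: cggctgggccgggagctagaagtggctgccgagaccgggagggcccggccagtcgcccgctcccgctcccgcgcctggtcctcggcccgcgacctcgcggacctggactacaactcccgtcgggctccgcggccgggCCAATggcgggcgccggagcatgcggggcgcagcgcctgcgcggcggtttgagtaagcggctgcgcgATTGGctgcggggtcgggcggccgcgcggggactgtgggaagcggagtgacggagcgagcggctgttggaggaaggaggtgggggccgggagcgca

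The boxes begin at -113 (plus orientation) and -46 (minus orientation) from the start, and neither overlapped another motif searched. A CCAAT box on either strand was found in 34.6% of 35116 promoter windows of this length in the table. Among the genes described here, 9 had windows that were searched (12 windows in all, STAG1 included). A CCAAT box was in 6 of the 12 windows, which belong to 5 genes, STAG1, STAG2, PDS5A, PDS5B and WAPL. The GC box GGGCGG was in 12 of 12 windows, against 45.0% of all, and the TATA box TATAAA in 0 of 12, against 11.5%. The ETS motif CCGGAAG was in 3 of 12 windows, of NIPBL and SMC1A, against 10.3% of all. The E2F motif TTTGGCGC was in 2 of 12, of NIPBL and STAG2, against 0.652%. Motifs were searched on both strands, and a match is a run of letters, not a bound site.

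The ring subunits did not share a direction. RAD21 was at 1576, 1262 and 1208 RPM with shRNA-1, shRNA-2 and shRNA-3, against 1834 RPM in Control. It was lower in all 3 SLEAR shRNA libraries, with the nearest value, in shRNA-1, at an upper counting bound of 1606 RPM against a lower bound of 1805 RPM in Control. The mean was 1349 ± 199 RPM (SD, n = 3) in SLEAR shRNA libraries, and the fitted log2 difference was -0.45 ± 0.25 (SE). SMC1A was at 9.22, 5.18 and 6.85 RPM with shRNA-1, shRNA-2 and shRNA-3, against 4.53 RPM in Control. All 3 values lay above Control, but only that of shRNA-1 had a counting interval (7.12 to 11.8 RPM) clear of the Control interval (3.21 to 6.22 RPM), and the fitted difference was 0.52 ± 0.69 (SE).

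SMC3, the partner ATPase of SMC1A, was at 14.0, 13.6 and 0 RPM with shRNA-1, shRNA-2 and shRNA-3, against 24.0 RPM in Control. The first 2 libraries agreed within counting error at 99 and 102 reads, below the 201 reads of the deeper Control, and shRNA-3 had 0 reads. Of 953 rows at 8 to 16 RPM in both SLEAR shRNA-1 and -2, 75 (7.87%) were likewise at 0 in shRNA-3, and 0 were at 0 in Control. The upper counting bound of 0.766 RPM for SMC3 in shRNA-3 covers counting error only, and why these rows were at 0 there was not tested. The fitted difference was -2.05 ± 1.84 (SE) with shRNA-3 and -0.76 without it. SMC1A and SMC3 thus lay on opposite sides of their Control values in shRNA-1 and -2, though in shRNA-2 SMC1A was within counting error of Control.

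STAG2, one of the alternative subunits that bind RAD21, was at 371, 392 and 177 RPM with shRNA-1, shRNA-2 and shRNA-3, against 302 RPM in Control. Counting intervals were narrow (357 to 385, 378 to 407 and 166 to 190 RPM, against 290.3 to 314 RPM in Control), so SLEAR shRNA-3 differed from the other 2 SLEAR shRNA libraries by more than counting error. The fitted difference was -0.03 ± 0.52 (SE) with all libraries and 0.34 without shRNA-3, which turned its sign.

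NIPBL, the loader, was near the limit of detection in every library. It was at 0.993, 0.532 and 0 RPM with shRNA-1, shRNA-2 and shRNA-3, against 0 RPM in Control, which is 7, 4, 0 and 0 reads. The counting interval of the highest value began at 0.399 RPM and that of Control ended at 0.440 RPM, and with so few reads no direction is given. Its row did not reach 1 RPM in any library and was not tested. Its partner MAU2 was measured at 41.7, 35.1 and 23.9 RPM with shRNA-1, shRNA-2 and shRNA-3, against 40.0 RPM in Control, with shRNA-3 again the lowest. Levels are not compared between genes, because the share of each transcript that the end reads capture was not tested.

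The PDS5 genes encode the proteins that sit on the ring next to WAPL. PDS5B was at 4.40, 5.05 and 1.25 RPM with shRNA-1, shRNA-2 and shRNA-3, against 7.63 RPM in Control. These are 31, 38 and 6 reads in SLEAR shRNA libraries and 64 reads in Control. All 3 SLEAR shRNA libraries were lower, but the interval of shRNA-2 (up to 6.93 RPM) and that of shRNA-1 (up to 6.24 RPM) overlapped that of Control (from 5.88 RPM). The fitted difference was -1.04 ± 0.92 (SE), and -0.60 without shRNA-3.

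PDS5A was spread over 2 transcript rows that went different ways. Through their RefSeq names the rows were matched to GENCODE 29 transcripts of 2685 bases in 16 exons with 600 codons (NM_001100400, the short transcript) and of 7176 bases in 33 exons with 1337 codons (NM_001100399, the long transcript). Their annotated 3' ends lie 75151 bases apart in the genome, the short one upstream, and each carries an AATAAA or ATTAAA hexamer, the usual signal for cleavage and polyadenylation, that begins 27 bases from the end in the short transcript and 25 bases from it in the long one.

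The short row was at 14.3, 23.1 and 7.89 RPM with shRNA-1, shRNA-2 and shRNA-3, against 22.7 RPM in Control. The long row was at 6.24, 3.19 and 9.35 RPM with shRNA-1, shRNA-2 and shRNA-3, against 1.19 RPM in Control. The long row lay above Control in all 3 libraries, and only in shRNA-2, whose interval began at 2.04 RPM, did it meet the upper bound of Control at 2.19 RPM, which rests on 10 reads. In the short row shRNA-2 equalled Control within counting error while shRNA-1 and -3 were lower. The fitted difference was -0.67 ± 0.69 (SE) for the short row, and -0.30 without shRNA-3, and 1.63 ± 0.86 (SE) for the long row.

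Of the PDS5A reads, the long row held 30.3% in SLEAR shRNA-1 (95% exact binomial interval 23.0 to 38.5%), 12.1% in shRNA-2 (7.92 to 17.5%) and 54.2% in shRNA-3 (42.9 to 65.2%), against 5.00% in Control (2.42 to 9.0%). The intervals of the 4 libraries did not overlap except those of shRNA-2 and Control, and the SLEAR shRNA libraries also differed from each other. The 2 rows together came to 20.6, 26.3 and 17.2 RPM with shRNA-1, shRNA-2 and shRNA-3, against 23.9 RPM in Control, so SLEAR shRNA libraries lay on both sides of Control in the sum. Intervals cover counting error only, since no molecular identifiers are mentioned.

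**Figure D2:**
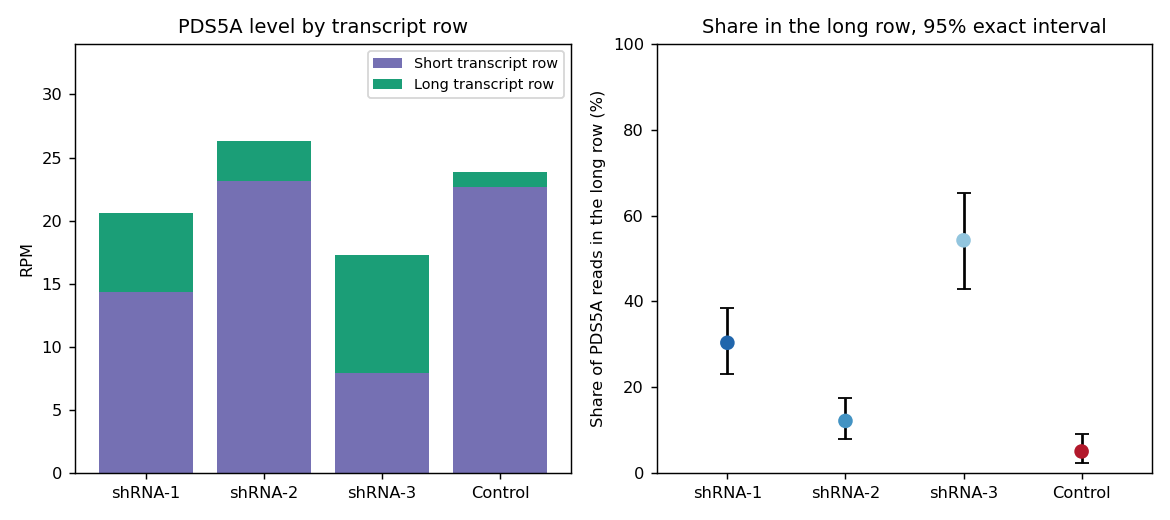
Left, RPM of the short and the long PDS5A transcript rows, stacked, in each library. Right, the share of PDS5A reads in the long row with 95% exact binomial intervals: 30.3%, 12.1% and 54.2% in SLEAR shRNA-1, -2 and -3, against 5.00% in Control.

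CTCF, the boundary factor, was at 378, 318 and 464 RPM with shRNA-1, shRNA-2 and shRNA-3, against 346 RPM in Control. SLEAR shRNA-1 and -3 lay above Control and shRNA-2 below, each with a counting interval clear of that of Control (334 to 359 RPM). The spread between SLEAR shRNA libraries (387 ± 73.2 RPM, SD, n = 3) exceeded the distance of their mean from Control, and the fitted difference was 0.14 ± 0.27 (SE).

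**Figure D3:**
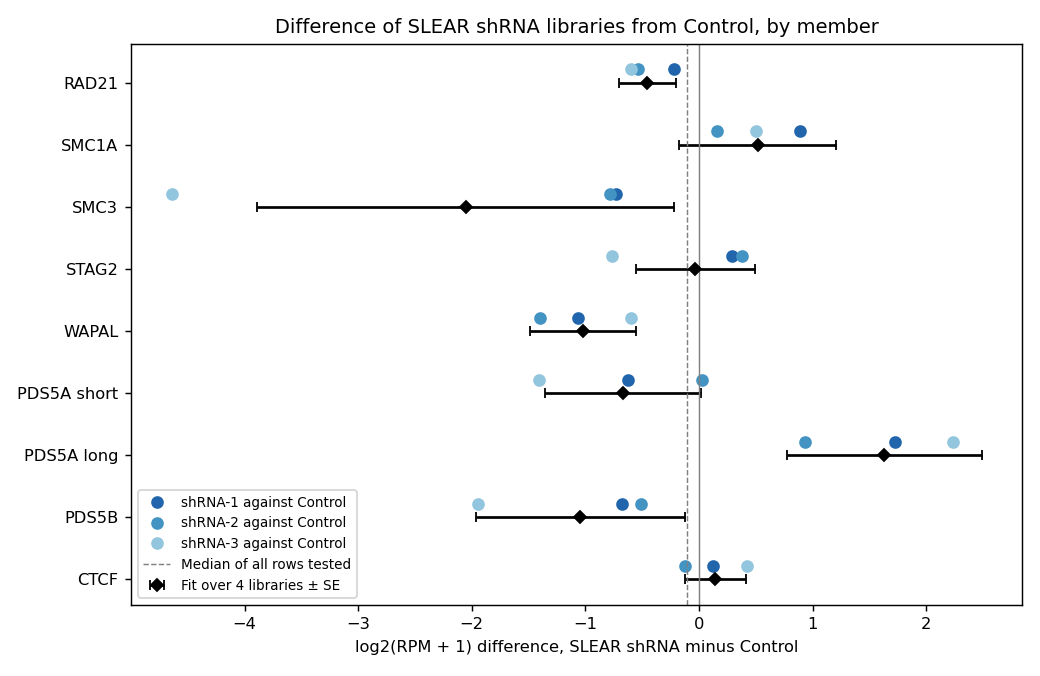
Log2(RPM + 1) difference from Control of each SLEAR shRNA library (circles) and the fitted difference with its SE (diamonds) for the 9 rows that were tested; the dashed line is the median of all rows tested, -0.11. WAPAL had all 3 circles between -1.40 and -0.60, and SMC3 had shRNA-3 at -4.64, where it had 0 reads.

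Across the whole table, SLEAR shRNA was compared with Control by limma-trend with Benjamini-Hochberg adjustment over 12350 rows that reached 1 RPM in some library. Of the cohesin rows, 9 of 10 were tested and 0 passed an adjusted p of 0.05, as did 0.0% of all rows in either direction; the smallest adjusted p in the table was 0.993. Unadjusted p values were under 0.05 for 92 rows that were higher and 239 that were lower, of which 0 were cohesin rows. By limma-voom on reads recovered from the steps 0 rows were called, and 69 were higher and 222 lower with unadjusted p values under 0.05. With 1 Control library the spread came from the 3 SLEAR shRNA libraries, and Control was assumed to vary like them.

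All 3 SLEAR shRNA libraries lay below Control for 4 of the 9 tested rows (WAPAL, SMC3, RAD21 and PDS5B), against 28.6% of all rows tested, and above it for 2 (SMC1A and the long PDS5A row), against 17.8%. The median fitted log2 difference was -0.45 over the 9 rows and -0.11 over all rows tested, and in SLEAR shRNA-1, -2 and -3 the 9 rows had medians of -0.22, -0.12 and -0.60, against -0.02, -0.04 and -0.23 over all rows. Because the set was chosen with this contrast known, nothing is read from these counts.

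With shRNA-3 left out and the table limited to 4851 rows whose log2 values averaged 4 or more, limma-trend called WAPAL (-1.23 ± 0.29, SE) and RAD21 (-0.38 ± 0.12, SE) among the 5 cohesin rows that reached that level, both lower, at an adjusted p under 0.05. STAG2 (0.34 ± 0.14, SE), the short PDS5A row (-0.30 ± 0.29, SE) and CTCF (0.00 ± 0.14, SE) were not called. The averages that set the limit were taken over all 4 libraries, shRNA-3 included, so rows at 0 there could miss it. SMC3, with 0 RPM in shRNA-3, averaged 3.10 and did not enter that fit. In that fit 7.26% of rows were called lower and 7.11% higher, and the single-row spread was replaced in full by a spread shared over rows. Leaving out shRNA-3 alone called 0 rows (smallest adjusted p = 0.368, with 775 rows higher and 893 lower by unadjusted p), as did the limit to abundant rows alone (smallest adjusted p = 0.982, with 71 and 63), both by limma-trend at 0.05. The calls of WAPAL and RAD21 restate the contrast by which the set was chosen and support nothing. SLEAR shRNA-3, which that fit left out, had WAPAL at -0.60 and RAD21 at -0.60 from the same Control.

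Other genes of the cohesin cycle and of related complexes were taken from 4 lists fixed by gene name. Of 58 tested rows in these lists, 0 were higher and 0 lower at an adjusted p under 0.05 by limma-trend, 2 had an unadjusted p under 0.05 (SMC4 and NCAPD3), and limma-voom called 0. All 3 SLEAR shRNA libraries lay above Control in 6 of these rows and below it in 15, against 17.8% and 28.6% of all rows tested. In SLEAR shRNA-3, 14 of the 58 rows were at 0, against 6941 of 16328 rows of the whole table, untested rows included. Such zeros enter the fitted differences and the list medians below. In the fit of the more abundant rows without shRNA-3, 0 of 29 listed rows were higher and 3 were lower, namely SMC4, NCAPG2 and NDNL2, against 7.26% of all rows in that fit.

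The cohesin cycle list holds regulators that load, acetylate, protect and cleave the ring. It also holds the meiotic cohesin subunits SMC1B, STAG3 and REC8, and genes that act at replication forks. Its median log2 difference was -0.28 over 21 tested rows. DSCC1, a subunit of the clamp loader that aids cohesion at forks, was at 139, 125 and 99.3 RPM with shRNA-1, shRNA-2 and shRNA-3, against 167 RPM in Control, lower in all 3. HDAC8, which deacetylates SMC3, had 3 rows, of which the one chosen by smallest p was at 3.26, 1.46 and 0.831 RPM in SLEAR shRNA libraries, against 5.25 RPM in Control. CHTF8, another subunit of that clamp loader, was at 740, 625 and 627 RPM in SLEAR shRNA libraries, against 554 RPM in Control, higher in all 3.

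Condensin, the SMC complex that compacts mitotic chromosomes, had a median of -0.37 over 11 tested rows of its list. SMC4, one of its ATPases, was at 751, 762 and 919 RPM with shRNA-1, shRNA-2 and shRNA-3, against 1254 RPM in Control, with a fitted difference of -0.64 ± 0.22 (SE) and an adjusted p of 0.993 by limma-trend. NCAPG2, of condensin II, was at 291, 226 and 171 RPM, against 365 RPM in Control. These transcripts lay below Control in all 3 SLEAR shRNA libraries, as did NCAPD3, also of condensin II, which was near the floor at 0.284, 0 and 0 RPM, against 1.67 RPM in Control. They were the only 3 of the 11 tested rows to do so, against 28.6% of all rows tested, and 0 lay above Control in all 3. The others had SLEAR shRNA libraries on both sides of Control. Beside condensin subunits, the list holds KIF4A and MCPH1.

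The list of the SMC5/6 complex, which acts in DNA repair, had a median of -0.04 over 11 tested rows. NDNL2, the older symbol of the subunit NSMCE3, was at 20.6, 22.7 and 21.4 RPM with shRNA-1, shRNA-2 and shRNA-3, against 36.7 RPM in Control, so the SLEAR shRNA libraries agreed closely below Control. NSMCE4A was at 487, 475 and 310.3 RPM in SLEAR shRNA libraries, against 504 RPM in Control. ANKRD32, the older symbol of SLF1, a recruiter of the complex, was at 23.0, 16.7 and 0 RPM in SLEAR shRNA libraries, against 24.8 RPM in Control, with shRNA-3 at 0 as for SMC3.

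The list of other factors at loops and boundaries had a median of -0.01 over 15 tested rows. VEZF1, a zinc finger protein, was at 144, 128 and 113 RPM with shRNA-1, shRNA-2 and shRNA-3, against 182 RPM in Control, lower in all 3. YY1, a structural factor at promoter loops, was near the floor at 0.568, 0.399 and 0 RPM in SLEAR shRNA libraries, against 1.67 RPM in Control.

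**Figure D4:**
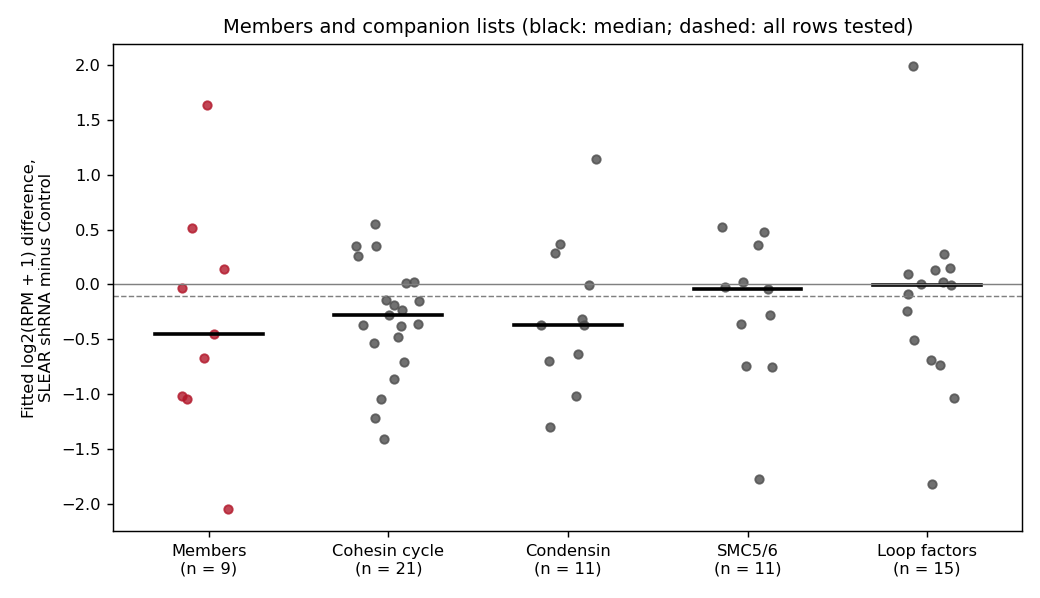
Fitted log2(RPM + 1) difference of each tested row for the cohesin members and the 4 companion lists, with the median of each group (black bars) and of all rows tested (dashed line, -0.11). The medians were -0.45, -0.28, -0.37, -0.04 and -0.01 from left to right, and no row passed the test over all rows.

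The rows most like WAPAL were sought among 4846 rows whose log2 values averaged 4 or more, by the Euclidean distance between their 3 log2 differences from Control. CTC-338M12.4, a clone-named transcript, was nearest at a distance of 0.130, with 19.9, 17.0 and 31.4 RPM with shRNA-1, shRNA-2 and shRNA-3, against 45.0 RPM in Control. ERLIN1, of the endoplasmic reticulum membrane, followed at 0.317, RHEB, the GTPase that activates mTORC1, at 0.359, and NKTR, a cyclophilin-related protein, at 0.385. All of them share the 1 Control library with WAPAL, so the likeness describes these libraries only.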

How the data were processed

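The deposited table holds RPM values per transcript row, made by the authors from MAPS libraries, per the labels' protocols. Bowtie2, SAMtools, FastQC and the hg19 build appear in the submitters' processing notes with no version, and the assignment of reads to rows is not given there. Depth was taken from the spacing of low values; 96.5% to 96.9% of values above 0 and under 1000 reads were whole multiples of it within 0.05 reads, and 5 to 28 rows per library lay below 1 read, so the values were not treated as counts in the main test.

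Duplicate rows, equal in all libraries and averaging 1 RPM or more, were merged, leaving 16151 of 16328. Log2(RPM + 1) was fitted with limma-trend (limma 3.58.1, R 4.3.3) on all 4 libraries, with 2 residual degrees of freedom. A pseudocount of 1 RPM understates differences of low rows. An exact permutation of 1 Control among 4 libraries cannot give a one-sided p below 0.25, so none was run. The alternatives were pseudocounts, filters, scalings, limma-voom, array weights, summed rows and left-out libraries. The members and lists were chosen with earlier results of these data known. Named genes were all member rows, the 3 smallest p values per list, and the 4 rows nearest to WAPAL; 1 gene that this rule names is not reported here. Gene coordinates in hg19 are not printed, since the annotation used is of GRCh38, and no sequence is shown for RAD21.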

Additional observations from a re-analysis of the deposited data

How the results depend on the processing

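Limma-voom in place of limma-trend also gave 0 rows higher, 0 lower and 0 listed rows called. The same counts came from limma-trend with pseudocounts of 0.1 and 5 RPM, a minimum mean log2 value of 4, and TMM or median-of-ratios scaling. They also came from limma-trend with array weights, rows summed by gene symbol and each SLEAR shRNA library left out in turn. With no filter on low values, 16151 rows were tested in place of 12350, the added ones under 1 RPM in every library. There, 1 row was higher and 376 were lower, and 1 listed row was called. Whether these calls lie among the added rows was not examined. Without SLEAR shRNA-3 and at a mean log2 value of at least 4, 345 were higher and 352 lower, and 3 listed rows were called; the cause was not tested. The median log2 difference of the cohesin rows was -0.45, between -0.57 and -0.30 with a library left out, -0.24 with no filter or array weights, and below 0 in every alternative. Of 107 member values under alternatives, 106 moved by less than the SD of the differences of the SLEAR shRNA libraries. The long PDS5A row moved to 0.83 with a pseudocount of 5 RPM. That count does not measure stability. Leaving out a SLEAR shRNA library cannot move a value by that SD, and the filters left each row's value unchanged. WAPAL ranged from -1.26 to -0.83, RAD21 from -0.57 to -0.38, SMC3 from -3.17 to -0.76, and STAG2 (-0.24 to 0.34) and CTCF (-0.02 to 0.28) crossed 0. No paired analysis was possible because there was only 1 Control library. Low read numbers limit NIPBL, PDS5B and the long PDS5A row most.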

Other observations

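Several other genes of the lists were, like PDS5A, spread over rows of separate transcripts. Beside the HDAC8 row given above, the other HDAC8 rows were at 3.10, 4.66 and 18.3 RPM in SLEAR shRNA libraries, against 8.92 RPM in Control, and at 32.6, 37.9 and 53.8 RPM, against 31.6 RPM in Control. NCAPH2, of condensin II, had a row at 2.70, 2.66 and 15.6 RPM in SLEAR shRNA libraries, against 3.70 RPM in Control, and a row at 9.36, 6.38 and 4.57 RPM, against 8.71 RPM in Control. In both HDAC8 rows named here and the first NCAPH2 row, SLEAR shRNA-3 was the highest library.

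NIPBL-AS1, a transcript annotated as antisense to NIPBL, was at 7.09, 9.17 and 0 RPM with shRNA-1, shRNA-2 and shRNA-3, against 3.94 RPM in Control. Counting by strand is not stated, and without it reads of NIPBL and NIPBL-AS1 cannot be told apart where they overlap.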
